A study of Glycine max with 20 samples.

Results

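Glycinin is the 11S globulin of soybean and, with the 7S globulin beta-conglycinin, makes up most of the protein that the seed stores. The 4 glycinin gene models Glyma.03G163500.1, Glyma.19G164900.1, Glyma.10G037100.1 and Glyma.13G123500.1 were followed one by one, out of 88515 transcript models of the Wm82.a2 assembly. They were chosen by name as the glycinin models of the study, not by a measured value. In the deposited tables each of them carried the protein family annotation Cupin and the best match "RmlC-like cupins superfamily protein" in Arabidopsis. Their cDNA lengths were 7505, 1723, 1918 and 1467 bases. The RefSeq gene table used here pairs none of these names with a symbol, so no symbol, coordinate or sequence is given.

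Ribosome footprint (FP) libraries, made from the RNA fragments that ribosomes shield from nuclease, were set beside control (CT) libraries made from fragmented total RNA of the same powdered tissue. All plants were greenhouse-grown soybean of the cultivar Williams, and each extract was ground from multiple seeds. Cotyledons were sampled at seed fresh weights of 25-50 mg (C25, early), 100-200 mg (C100, mid) and 300-400 mg (C300, late), and dissected seed coats at 25-50 mg (SC25) and 100-200 mg (SC100). Of these groups, 8 had 2 libraries, and C100 FP and C300 FP had 1 each, with a second library of either not analysed here. Levels are RPKMs (counts of a model scaled to its length in kilobases and to the total count of its library), and translational efficiency (TE) is the mean FP level divided by the mean CT level.

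Cotyledon cells make glycinin during seed filling as a precursor on the rough endoplasmic reticulum, where it folds and forms trimers. The precursor then travels to the protein storage vacuole. There a vacuolar processing enzyme cuts each subunit into an acidic and a basic chain that stay joined by a disulfide bond, and the cut trimers pair into the hexamer that is stored. The seed coat is maternal tissue and is not a known site of glycinin storage.

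Total counts ranged from 7205928 to 32562521 per library, and from 8098292 to 24752905 in cotyledons. The limit that a count of 0 allows, 3 counts, came to at most 0.284 RPKM for any of the 4 glycinins in any library. Intervals and limits of this kind cover counting error only. A library of either tissue could hold RNA of the other, so the summed RPKM of 15 other storage protein models, taken as cotyledon markers, and of 17 models higher in seed coats, largely of flavonoid and gibberellin-regulated genes, was computed. The study had picked the 17 from these libraries for high footprints over control RNA at C25, and they were known from earlier results to be higher in seed coats, so their sums are not independent evidence of either. The storage models summed to 1021 to 14226 RPKM in cotyledon and 11.03 to 308 RPKM in seed coat libraries, without overlap. The 17 models summed to 197 to 973 RPKM in seed coats. A pair of libraries stood apart. In C25 FP replicate 2 the 17 models summed to 92.9 RPKM, with 0 of 17 at 0, against 1.27 RPKM in replicate 1, with 9 at 0, and 0.696 to 3.79 RPKM over the other 9 cotyledon libraries. A high C25 footprint level was part of how they were picked. In SC25 CT replicate 1 the storage models summed to 297 RPKM against 19.5 in replicate 2, while the 17 models summed to 829 and 869. The library of the other type from the same powder stood lower in each case. C25 CT replicate 2 held 3.79 RPKM of the 17 models, and SC25 FP replicate 1 held 29.0 RPKM of the storage models. The source of these differences was not tested. In bulk tissue, fewer cells of a type and less RNA per cell cannot be told apart.

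In early cotyledons the 4 glycinins were already well expressed, and they differed in level. Glyma.03G163500.1 stood at 148 and 182 RPKM in the C25 CT libraries. Glyma.19G164900.1 followed at 103 and 113 RPKM, Glyma.10G037100.1 at 71.9 and 97.5, and Glyma.13G123500.1 at 48.7 and 70.7. In each of the 2 libraries the order was the same and neighbours in it did not overlap between replicates, although Glyma.10G037100.1 at its lowest, 71.9, lay close to Glyma.13G123500.1 at its highest, 70.7. Among all primary transcript models the highest of the 4 ranked 135 and 133 and the lowest 278 and 237.

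By the mid stage all 4 glycinins had risen several-fold, and the order of the 4 listed models had changed. The C100 CT libraries held 1221 and 878 RPKM of Glyma.03G163500.1, 795 and 610 of Glyma.19G164900.1, 1219 and 945 of Glyma.10G037100.1, and 1285 and 991 of Glyma.13G123500.1. Every C100 library exceeded every C25 library for each model. The mean RPKM rose 6.35-fold for Glyma.03G163500.1, 6.49-fold for Glyma.19G164900.1, 12.8-fold for Glyma.10G037100.1 and 19.1-fold for Glyma.13G123500.1. At C100 the levels of Glyma.03G163500.1, Glyma.10G037100.1 and Glyma.13G123500.1 overlapped between replicates, and only Glyma.19G164900.1 lay below them in both.

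**Figure D1:**
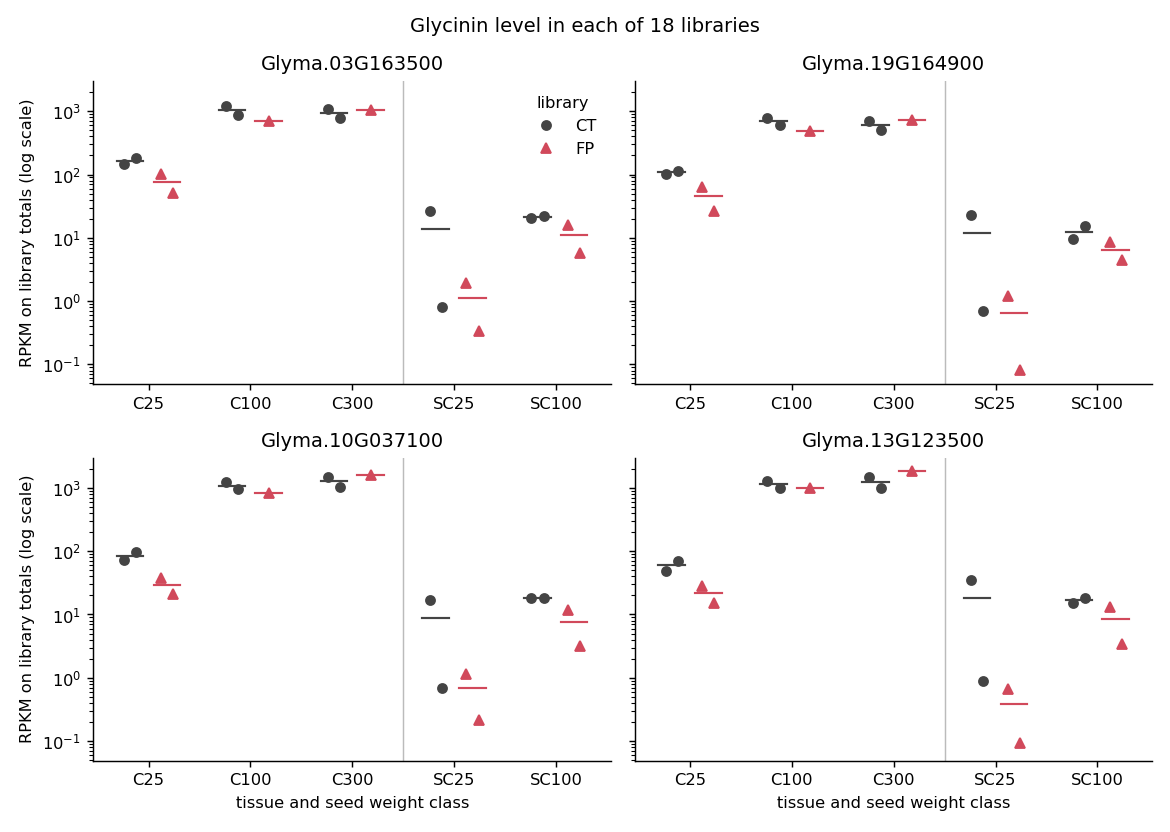
Level of each glycinin model in each of 18 libraries, in RPKM on a logarithmic axis, by tissue and seed weight class. Circles are CT and triangles FP libraries, short bars are group means, and the cotyledon classes C25, C100 and C300 stand left of the grey line. The rise from C25 to C100 and the gap between the 2 SC25 CT libraries, 26.3 and 0.819 RPKM for Glyma.03G163500.1, are seen in all 4 panels.

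By the quasi-likelihood test of edgeR on TMM-normalized counts, CT at C100 was higher than at C25 for 4 of 4 glycinins, against 6.09% of the 64307 transcripts tested called higher and 4.94% lower. The log2 fold change was 3.71 ± 0.585 (SE) for Glyma.03G163500.1, with an adjusted p of 2.2e-04, and 3.73 ± 0.455 for Glyma.19G164900.1, with an adjusted p of 1.3e-05. It was 4.73 ± 0.506 for Glyma.10G037100.1 (adjusted p = 3.1e-06) and 5.31 ± 0.511 for Glyma.13G123500.1 (adjusted p = 9.8e-07). TMM sets the libraries to the bulk of the transcripts, whose median log2 change was -0.10. On library totals that median was -1.12 and the 4 glycinins rose by 2.67, 2.70, 3.68 and 4.25. When all 18 libraries shared 1 estimate of the spread, Glyma.03G163500.1 and Glyma.19G164900.1 no longer passed, with adjusted p-values of 0.224 and 0.115.

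Footprints of each glycinin rose between the same stages. Glyma.03G163500.1 went from 103 and 51.4 RPKM in the C25 FP libraries to 693 in the C100 FP library. Glyma.19G164900.1 went from 63.2 and 26.7 to 480 RPKM, and Glyma.10G037100.1 from 37.5 and 20.9 to 842. Glyma.13G123500.1 had the lowest footprint level of the 4 at C25, 28.6 and 15.2 RPKM, and the highest at C100, 995. In the edgeR fit, which lets the lone C100 FP library vary like the other groups, 4 of 4 rose, against 3.04% of all transcripts tested. Their log2 fold changes were 3.69 ± 0.634 (SE), 3.95 ± 0.496, 5.37 ± 0.551 and 6.02 ± 0.554 in the same order, with adjusted p-values from 1.8e-06 to 0.0012. C25 FP replicate 2, where the 17 models higher in seed coats stood at 92.9 RPKM, had the lower glycinin footprints, by 1.79-fold to 2.37-fold, while the median over all primary models above 1 RPKM was 1.57-fold. The part of those models' RNA in the result was not tested. Without that library the 4 log2 fold changes were 3.41, 3.58, 5.15 and 5.78 and all 4 stayed called. In the joint estimate over 18 libraries Glyma.03G163500.1 and Glyma.19G164900.1 lost the call here as well, with adjusted p-values of 0.36 and 0.17.

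From the mid to the late stage no glycinin changed in CT beyond the replicate spread, and footprints had 1 library at each of these stages and so no replicate check of their own. The C300 CT libraries held 1078 and 778 RPKM of Glyma.03G163500.1, 703 and 501 of Glyma.19G164900.1, 1505 and 1050 of Glyma.10G037100.1, and 1511 and 997 of Glyma.13G123500.1. For each model the C300 and C100 CT libraries overlapped. The fitted log2 changes in CT ran from -0.30 for Glyma.19G164900.1 to 0.16 for Glyma.10G037100.1, and 0 of 4 was called, against 1.85% of transcripts called higher and 1.37% lower. The 95% interval for Glyma.13G123500.1 was -0.83 to 0.94. In the C300 FP library the 4 stood at 1035, 726, 1588 and 1816 RPKM in the order above, each above its C100 FP value. With TMM the log2 changes of the same footprints were -0.50 to -0.16, and on library totals 0.58 to 0.92. In both scalings 0 of 4 was called, against 0.308% of transcripts called higher and 0.585% lower with TMM, and the sign turned with the scaling.

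**Figure D2:**
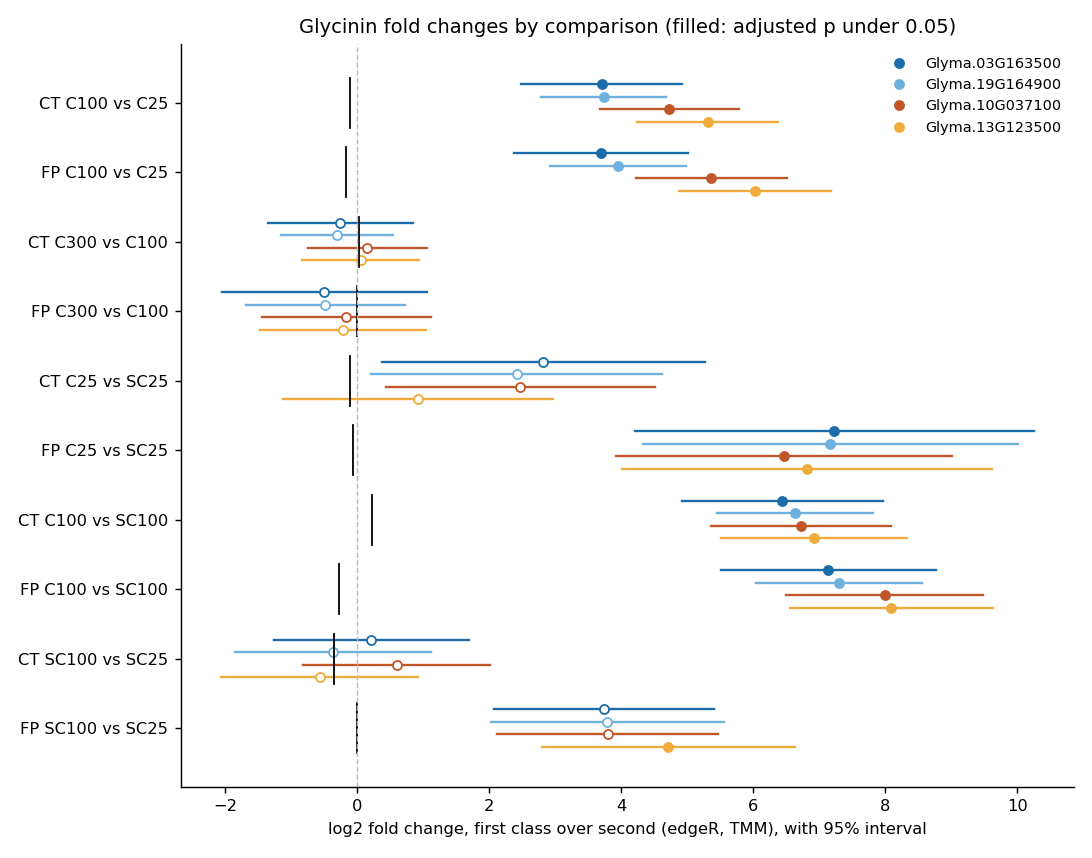
Log2 fold change of each glycinin in 10 comparisons between stages and between tissues, from edgeR with TMM normalization. Points are the fitted values, filled where the adjusted p was under 0.05, horizontal lines are 95% intervals, and the black tick is the median of all transcripts tested. All 4 points are filled and right of 3.6 for C100 over C25 in CT and FP, and all are open for C300 over C100.

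The mixture of the 4 glycinins differed between C25 and the later stages, which was noticed after the values were seen and is given as a description. A share of the summed RPKM of the 4 models does not depend on the scaling of a library. In the 4 C25 libraries Glyma.03G163500.1 held 39.3% to 45.0% of that sum and Glyma.13G123500.1 12.3% to 15.2%. In the 3 C100 libraries these shares were 23.0% to 27% and 28.4% to 33.1%. In the 3 C300 libraries they were 20.04% to 23.4% and 30.0% to 35.2%. Glyma.19G164900.1 held 23.4% to 27.7% at C25 and 14.1% to 15.1% at C300, and Glyma.10G037100.1 held 16.1% to 21% and 30.7% to 31.6%. For none of the 4 did the C25 and C300 ranges overlap.

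In cotyledons the mixture could be described as 2 pairs, Glyma.03G163500.1 with Glyma.19G164900.1 and Glyma.10G037100.1 with Glyma.13G123500.1. Glyma.03G163500.1 stood at 1.43 to 1.92 times Glyma.19G164900.1 over the 10 cotyledon libraries. A read that fitted both models of a pair could be counted at each, and the part of such reads in these ratios was not tested. The ratio of Glyma.13G123500.1 to Glyma.10G037100.1 was 0.677 to 0.763 at C25 and 0.95 to 1.18 later. In seed coat libraries, some with few counts, the ratios within the pairs spread more widely, 1.15 to 4.13 and 0.436 to 2.07. The summed level of the second pair over that of the first was 0.398 to 0.569 at C25, 1.24 to 1.57 at C100 and 1.6 to 1.93 at C300. At each stage with both library types the FP libraries had the lowest or the highest of these ratios. At C25 the 2 FP libraries gave 0.398 and 0.463 and the CT libraries 0.48 and 0.569, whereas the single FP library lay above both CT libraries at C100 (1.57 against 1.24 and 1.3) and at C300 (1.93 against 1.69 and 1.60).

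**Figure D3:**
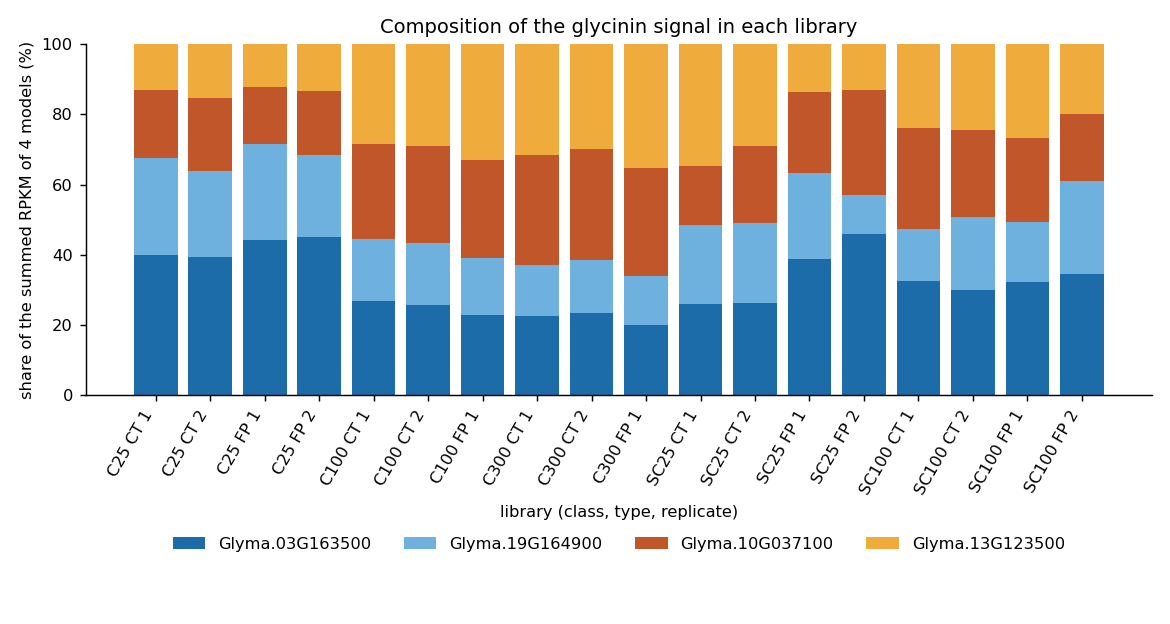
Share of each glycinin in the summed RPKM of the 4 models, in percent, with 1 stacked bar per library. Blue bars are Glyma.03G163500.1 and Glyma.19G164900.1, which together took 63.7% to 71.5% in the C25 libraries and 34.1% to 38.4% in the C300 libraries, and orange bars are Glyma.10G037100.1 and Glyma.13G123500.1. The SC25 FP bars rest on 179 and 23 counts in all.

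TE was computed to ask how footprint density followed RNA level. On library totals it was 0.416, 0.684 and 1.21 at C25, C100 and C300 for Glyma.19G164900.1, and 0.345, 0.778 and 1.24 for Glyma.10G037100.1. Glyma.13G123500.1 had 0.367, 0.874 and 1.45. Glyma.03G163500.1 went from the highest of the 4 values at C25, 0.467, to the lowest at C300, 1.12. Its place at C300 rests on 1 FP library. In the paper's TE values, averaged over both replicates, Glyma.19G164900.1 was the lowest of the 4 at C300. The C25 values rest on replicate pairs that lay far apart, 0.587 and 0.215 for Glyma.13G123500.1 and 0.693 and 0.282 for Glyma.03G163500.1. The pair with the lower values holds C25 FP replicate 2. At C100 and C300 the single FP library was divided by the mean of 2 CT libraries. Matched by number, so that FP and CT came from 1 powder, the replicate 1 values at C25, C100 and C300 were 0.693, 0.568 and 0.96 for Glyma.03G163500.1 and 0.614, 0.604 and 1.03 for Glyma.19G164900.1. They were 0.521, 0.691 and 1.06 for Glyma.10G037100.1 and 0.587, 0.774 and 1.2 for Glyma.13G123500.1, a smaller span from C25 to C300 than that of the group means for each model.

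The course of TE with stage also depended on the scaling. On library totals every level is scaled by a total that includes the most abundant models. Models over 5000 RPKM took 61.7% to 77.3% of the counts across cotyledon CT libraries. Footprint libraries gave them more, 91.6% and 93.3% at the early stage, 87.7% at the mid stage, then 80.6% at the late stage. With those models left out of the totals, the log2 ratio of TE at C300 to TE at C25 ran from -0.38 to 0.33. The part of their share in the course of TE was not tested. With TMM-scaled levels TE was 2.25, 2.18 and 1.96 for Glyma.03G163500.1, 1.98, 2.25 and 2.12 for Glyma.19G164900.1, 1.68, 2.56 and 2.19 for Glyma.10G037100.1, and 1.8, 2.87 and 2.56 for Glyma.13G123500.1. The log2 ratio of TE at C300 to TE at C25 from group means was 1.26, 1.54, 1.85 and 1.98 on library totals, in the order used above, and -0.20, 0.10, 0.38 and 0.51 with TMM. The rank of a TE among other genes of a stage can barely move with the scaling, since all models of a library share 1 factor. Its steadiness is therefore no check of the scaling. Among the 1494 primary models with a mean CT level of at least 10 RPKM at C25, the TE of the 4 glycinins exceeded that of 90.2%, 83.9%, 71.0% and 75.8%. At C300, among 784 such models, the shares were 83.9%, 88.4%, 89.3% and 94.8%.

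As a test of the change in TE, the interaction of stage and library type in edgeR was called for 0 of 4 glycinins between C25 and C100, where 0.0109% of transcripts were called higher and 0.00311% lower. It was called for 0 of 4 between C100 and C300 (0% of transcripts either way, 2639 higher and 4073 lower at an unadjusted p under 0.05). Between C25 and C300 it was called for 0 of 4 again, beside 0.0109% of transcripts higher and 0.00156% lower. At an unadjusted p under 0.05 no glycinin passed in any of these comparisons. DESeq2 called 0 of 4 in each. The interaction for Glyma.13G123500.1 was 0.45 on the log2 scale with a 95% interval of -0.95 to 1.85.

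**Figure D4:**
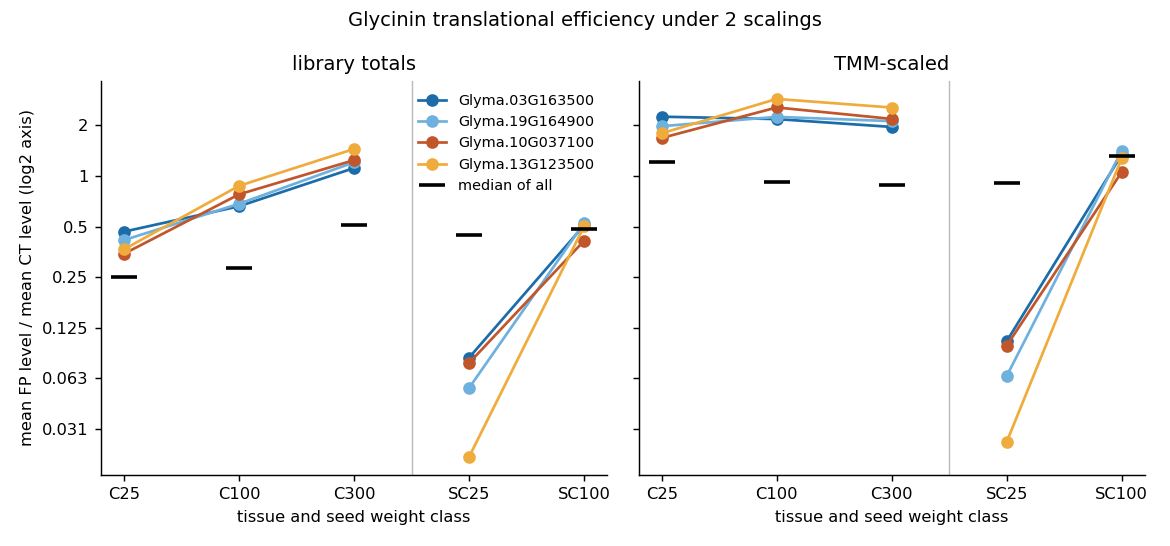
TE of each glycinin (mean FP level over mean CT level, logarithmic axis) by tissue and seed weight class, on library totals at left and with TMM scaling at right. Points are the values of the 4 models, and black bars are the median TE of primary models with a mean CT level of at least 10 RPKM. The span from C25 to C300 at left, 0.367 to 1.45 for Glyma.13G123500.1, is 1.8 to 2.56 at right.

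Within a stage, footprints lay above control RNA on the TMM scale at each cotyledon stage, without passing the main edgeR test. At C25 the log2 ratios of FP to CT were 1.25, 1.06, 0.83 and 0.92, and 0 of 4 passed (adjusted p = 0.0579 to 0.103), against 6.42% of transcripts called higher and 4.92% lower. FP and CT of a stage and number came from 1 powder, and with that tissue sample as a block Glyma.19G164900.1 and Glyma.13G123500.1 passed, at 1.00 and 0.90 with adjusted p-values of 0.0406 and 0.0261. Without C25 FP replicate 2 the ratios were 1.55, 1.45, 1.06 and 1.18. On library totals all 4 ratios were negative, -1.10 to -1.54, and 3 of 4 were called lower. The median of all transcripts was -2.50 there, below each of the 4. Those calls thus do not set the glycinins lower than other transcripts, and the shares above are from the TMM fit. At C100 the TMM ratios were 1.19 to 1.59 and at C300 0.95 to 1.33, each with 0 of 4 called by edgeR and 4 of 4 by DESeq2. By edgeR 3.65% and 1.35% of transcripts were called higher and 3.96% and 3.18% lower. DESeq2 also called 4 of 4 at C25. The share of all transcripts that DESeq2 called at these stages is not set beside its calls here. They are therefore not read as a result about the glycinins. Leaving out either C25 FP library, which enters these fits only through the spread and the scaling, gave 4 of 4 at C100 and 3 of 4 at C300. On library totals the C100 ratios were -0.60 to -0.19, and 0 of 4 was called.

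In seed coats the glycinins were found at low levels that differed between libraries. In SC25 CT replicate 1 they stood at 26.3, 22.9, 17 and 35.2 RPKM for Glyma.03G163500.1, Glyma.19G164900.1, Glyma.10G037100.1 and Glyma.13G123500.1. In replicate 2 they stood at 0.819, 0.70, 0.686 and 0.897 RPKM. The gap was 24.7-fold to 39.2-fold, and over the 13 other storage models with at least 3 counts in replicate 2 it was 1.04-fold to 25.5-fold with a median of 17.2. The 17 models higher in seed coats had a median ratio of 0.872. Glyma.13G123500.1, the lowest glycinin in early cotyledons, was the highest of the 4 in both SC25 CT libraries, with 34.7% and 28.9% of their sum. In replicate 2 it rested on 12 counts, and its lead over the 0.819 RPKM of Glyma.03G163500.1 was within counting error.

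SC25 FP replicate 2 held the lowest value of each glycinin in the series. Glyma.03G163500.1 had 1.92 and 0.333 RPKM in the SC25 FP libraries, Glyma.19G164900.1 1.21 and 0.0805, Glyma.10G037100.1 1.15 and 0.217, and Glyma.13G123500.1 0.674 and 0.0946. In SC25 FP replicate 2 the values of Glyma.19G164900.1 and Glyma.13G123500.1 came from 1 count each, below the limits of 0.242 and 0.284 RPKM that a count of 0 allows. At SC100 the glycinins were more even. The CT libraries held 20.8 and 22.0 RPKM of Glyma.03G163500.1, 9.42 and 15.3 of Glyma.19G164900.1, 18.3 and 18.1 of Glyma.10G037100.1, and 15.2 and 18 of Glyma.13G123500.1. The FP libraries held 16.0 and 5.81, 8.57 and 4.42, 11.8 and 3.20, and 13.3 and 3.36 RPKM in that order, with replicate 1 above replicate 2 for each model.

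Cotyledons exceeded seed coats by a wide margin at the mid stage. In CT the mean RPKM at C100 was 49.0-fold, 56.8-fold, 59.4-fold and 68.5-fold that at SC100 in the order above, and in FP 63.6-fold, 73.9-fold, 112-fold and 119-fold. The edgeR log2 fold changes were 6.44 to 6.92 in CT and 7.14 to 8.09 in FP. They were called for 4 of 4 glycinins in CT (adjusted p at most 3.5e-04), against 4.19% of transcripts called higher and 5.45% lower, and for 4 of 4 in FP (adjusted p at most 7.0e-04), against 2.26% higher and 3.13% lower. The 15 storage models taken as cotyledon markers summed to 58.3 to 308 RPKM in the SC100 libraries, with at most 1 of 15 at 0, and their part in the seed coat values was not tested.

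At the early stage the results turned on single libraries and, in CT, on the model fitted. C25 footprints exceeded SC25 footprints by 6.46 to 7.23 on the log2 scale, and 4 of 4 glycinins were called (adjusted p = 0.008 to 0.0124), against 1.45% of transcripts. Leaving out either SC25 FP library kept the sign and ended all 4 calls. In CT the difference from C25 to SC25 was 2.82, 2.42, 2.47 and 0.92, and 0 of 4 passed, against 4.26% of transcripts called higher and 8.99% lower. Without SC25 CT replicate 1, which left 1 library in that group, the same differences were 7.76, 7.37, 7.03 and 6.13. With all libraries, a replicate block by number called 4 of 4, and library totals or no filter on counts 3 of 4 each. The shares above belong to the main fit, so these counts have no share of all transcripts beside them.

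Between the seed coat stages, Glyma.13G123500.1 alone passed in FP, where it was higher at SC100 by 4.72 ± 0.946 (SE) on the log2 scale with an adjusted p of 0.0287. The other 3 had log2 changes of 3.74 to 3.80 in the same fit and did not pass (adjusted p = 0.0557 to 0.0964), beside 0.0296% of transcripts called higher and 0.0394% lower. In DESeq2 0 of 4 passed, and leaving out any 1 seed coat library gave 2 of 4 (SC100 CT replicate 2) or 4 of 4 (each of the other 7). In CT the log2 changes from SC25 to SC100 ran from -0.57 to 0.60 with 0 of 4 called, against 0.0328% of transcripts called higher and 0.069% lower. Without SC25 CT replicate 1 these changes were 4.56 to 5.14.

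The fitted footprint level in SC25 was below that of control RNA for each glycinin, although SC25 FP replicate 1 exceeded SC25 CT replicate 2 in RPKM for all but Glyma.13G123500.1. The log2 ratios were -3.09, -3.65, -3.11 and -4.93, and edgeR called 4 of 4 lower, where 0.0364% of all transcripts were. In that fit the spread was taken as common to all transcripts, with 109928 degrees of freedom for the test, so that the 24.7-fold to 39.2-fold gap between the 2 CT libraries did not widen the errors of the glycinins themselves. DESeq2 called 0 of 4, and so did edgeR without either SC25 FP library. Without SC25 CT replicate 1 the ratios turned positive, 1.83, 1.32, 1.46 and 0.30, and 0 of 4 passed. At SC100 the ratios were 0.05 to 0.50 with TMM and -1.28 to -0.93 on library totals, with 0 of 4 called by edgeR in either scaling or by DESeq2. Without SC100 CT replicate 2, 1 of 4 passed. In edgeR 0% of transcripts were called there in either direction, and 1409 higher and 945 lower had an unadjusted p under 0.05.

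The interaction of tissue with library type at the early stage was 4.41, 4.75, 4.0 and 5.90 on the log2 scale, with TE higher in C25 than in SC25. It was called for 0 of 4 glycinins and 0% of transcripts (2363 higher at an unadjusted p under 0.05) by edgeR and 0 of 4 by DESeq2, and 3 of 4 passed with the tissue sample as a block (4.8, 3.82 and 6.08). Without SC25 CT replicate 2 it was called for 4 of 4, and without either C25 CT library for 1. From SC25 to SC100 the interaction was 3.19 to 5.28 with 0 of 4 called by edgeR (0% of transcripts, 866 higher at an unadjusted p under 0.05) or by DESeq2, and again 3 of 4 passed with the block (4.29, 2.89 and 5.34). Without SC100 FP replicate 2, 3 of 4 passed, without either SC25 FP library 2, and without SC25 CT replicate 2 1. In both comparisons the 3 that passed with the tissue sample as a block were Glyma.19G164900.1, Glyma.10G037100.1 and Glyma.13G123500.1. Without SC25 CT replicate 1, 3 of the 4 values turned negative in each comparison. At the mid stage the TE interaction of cotyledon and seed coat was 0.66 to 1.27, with 0 of 4 called by edgeR or DESeq2 (0% of transcripts by edgeR, 627 higher and 1828 lower at an unadjusted p under 0.05).

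The level of Glyma.03G163500 also depended on which of its models was read. Beside the model of 7505 bases, the tables hold 4 splice variants of 7420, 1960, 1742 and 5739 bases. Glyma.03G163500.1 and Glyma.03G163500.2 had 21237 and 21277 counts in C25 CT replicate 1, so a read that fitted several models was counted at each. The 2 short variants together held 1.07 to 1.16 times the counts of Glyma.03G163500.1 in the 10 cotyledon libraries, on less than its length. Per kilobase, Glyma.03G163500.3 and Glyma.03G163500.4 stood 2.15-fold to 2.38-fold above it there, at 2680 and 2663 RPKM in C100 CT replicate 1, above each of the other 3 glycinins. In mean CT level these variants held 378 and 373 RPKM at C25, 2313 and 2291 at C100, and 2054 and 2066 at C300. They stayed above the other 3 glycinins at each stage, so the change in order after C25 does not hold for them. In SC25 CT replicate 1 they stood at 66.4 and 67.7 RPKM, above Glyma.13G123500.1 at 35.2. The order of levels among glycinins, and the shares above, thus hold for the models listed. Changes between groups did not depend on the model in the same way, since the log2 change in CT from C25 to C100 was 3.65 to 3.74 over the 5 models of the gene.

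Among the other storage protein models 12 of 15 rose in CT between the early and mid stage, with a median log2 change of 2.68, where 6.09% of all transcripts were called higher and 4.94% lower. Of 9 beta-conglycinin models, which encode the 7S globulin, 9 rose in CT by a median of 2.69 on the log2 scale, and of 5 Kunitz trypsin inhibitor models 2 rose, with a median over the 5 of 1.29. The median over the 4 glycinins was 4.23, and over all transcripts -0.10. The most abundant conglycinins, Glyma.20G148300.1 and Glyma.20G148400.1, went from 1016 and 1015 RPKM in C25 CT to 3173 and 3165 in C100 CT, but their near-equal values may come from shared reads. In mean CT level each of the pair exceeded each of the 4 glycinins at all 3 stages. Of the 120 other cupin models 57 were tested in the same comparison, and 12 rose and 1 fell, with a median of 0.57. The 2 most abundant, Glyma.U020300.1 and Glyma.10G246400.1, rose by 3.41 and 2.73.

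A further list held models annotated as enzymes or receptors of kinds that process or carry storage proteins. Whether each acts on glycinin was not tested. Of its 41 models tested, 3 rose and 2 fell in CT from C25 to C100, near the 6.09% and 4.94% of all transcripts. Of 10 vacuolar processing enzyme models, 1 rose and 0 fell, with a median of 0.63, and of 7 vacuolar sorting receptors, which carry storage proteins to the vacuole, 2 rose among 6 tested. Of 25 models annotated as protein disulfide isomerases, enzymes that help to form disulfide bonds in proteins, 0 rose and 2 fell. The most abundant of these, Glyma.04G247900.1 and Glyma.06G114800.1, had changes of -0.21 and -0.26 that did not pass.

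Across the 18 libraries, the model most like each glycinin was another glycinin, also with 0.1 in place of 1 in the log. The likeness was Pearson's r of log2(RPKM + 1) among 1659 primary models with at least 10 RPKM in a cotyledon stage, and it is a description, since all points share the contrast of cotyledon and seed coat. Glyma.03G163500.1 and Glyma.19G164900.1 had r = 0.998 with each other, and Glyma.10G037100.1 and Glyma.13G123500.1 r = 0.995. Across these pairs r was 0.977 to 0.989. Reads that fitted more than 1 glycinin could be counted at each, and their part in these values was not tested. Next to the first pair stood Glyma.08G116300.1 (r = 0.997 and 0.994) and Glyma.08G116400.1 (r = 0.992 and 0.99), both annotated as papain family cysteine proteases. Next after its partner, Glyma.10G037100.1 had the Kunitz inhibitor Glyma.01G095000.1 (r = 0.992) and Glyma.08G116400.1 (r = 0.99) as most alike. For Glyma.13G123500.1 these were the lipoxygenase Glyma.13G347600.1 (r = 0.988) and a further papain family protease, Glyma.05G158600.1 (r = 0.982). With 0.1 in the log some of these neighbours changed. Glyma.19G164900.1 replaced Glyma.05G158600.1 for Glyma.13G123500.1, and the lectin Glyma.02G012600.1 replaced Glyma.08G116400.1 for Glyma.03G163500.1. For Glyma.10G037100.1, Glyma.08G116300.1 replaced Glyma.08G116400.1.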

How the data were processed

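Per the paper's methods, the authors trimmed adapters, aligned the reads without mismatches by Bowtie (version 1) to the Wm82.a2 cDNA models and removed those matching ribosomal DNA. The deposited value is a raw count of alignments per model, 1 table per library, with the cDNA length. Groups came from the labels. RPKM was computed from count, length and library total. edgeR 4.0.16 (quasi-likelihood, TMM, R 4.3.3) was fitted to models with at least 10 counts summed over a fit, in 21 comparisons, with Benjamini-Hochberg adjustment over all models of a fit and a threshold of 0.05; library totals were 7205928 to 32562521. DESeq2 1.42.0, other scalings, filters and blocks, and fits without each library were the alternatives. The scripts were tested on simulated data. FP and CT of a stage and number came from 1 powder, which pairs them. Over 36710 transcripts the deviations of these pairs correlated at 0.00387 in C25, 0.306 in SC25 and 0.215 in SC100. P-values measure the spread between these libraries only. The members and lists were chosen with earlier results of these data known. Named genes were the members, their splice variants, the 2 models most abundant in cotyledon CT of the storage, other cupin and processing lists, and the 3 models most like each member.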

Additional observations from a re-analysis of the deposited data

How the results depend on the processing

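Calls of the 4 glycinins are counts of members passing at an adjusted p of 0.05, and values are log2 changes. The shares of all transcripts given above are from edgeR with TMM and all libraries of a fit. Most counts under the alternatives have no such share beside them. The comparisons of C100 with C25 and with SC100, in CT and FP, kept 4 of 4 called under every alternative, except that all 18 libraries in 1 fit gave 2 of 4 for C100 over C25 in CT and 2 of 4 in FP. C300 over C100 and the TE comparisons among cotyledon stages had 0 of 4 called throughout.

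DESeq2 gave 4 of 4 for FP over CT at C25, 4 at C100 and 4 at C300, 0 for FP over CT at SC25 and 0 for FP of SC100 over SC25. All 18 libraries in 1 fit gave 0 for FP over CT at SC25 and 0 for FP of SC100 over SC25. Primary transcripts alone gave 0 for the latter. A minimum of 10 counts in every library gave 1 for FP of C25 over SC25, 0 for FP over CT at SC25 and 0 for FP of SC100 over SC25, with members under it giving no value. With no filter the counts were 3 for CT of C25 over SC25, 4 for FP of SC100 over SC25, 1 for FP over CT at C100, 2 at SC25, 4 for TE of C25 over SC25 and 3 for TE of SC100 over SC25. On library totals they were 3 for CT of C25 over SC25, 2 for FP of SC100 over SC25, 1 for FP over CT at SC25 and 3, all lower, for FP over CT at C25.

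With a replicate block by number, 4 passed for CT of C25 over SC25, 4 for FP of SC100 over SC25, 2 for FP over CT at C25, 3 for TE of C25 over SC25 and 3 for TE of SC100 over SC25. With the replicate block by tissue sample, which pairs FP with CT, 2, 3 and 3 passed for the last 3 of these, and no other count of calls moved.

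Signs turned mostly with the scaling. In the order Glyma.03G163500.1, Glyma.19G164900.1, Glyma.10G037100.1 and Glyma.13G123500.1, library totals gave 0.58, 0.60, 0.92 and 0.87 for FP of C300 over C100, -1.10, -1.27, -1.54 and -1.45 for FP over CT at C25, -0.60, -0.55, -0.36 and -0.19 at C100, -0.97, -0.93, -1.28 and -0.99 at SC100, and 0.76, 0.82, 0.68 and 0.73 for TE of C300 over C100. For Glyma.03G163500.1 they also gave TE changes of 0.50 from C25 to C100 and 1.26 to C300, and for Glyma.19G164900.1 0.0604 in CT of SC100 over SC25. Totals without the models over 5000 RPKM gave 0.25 and 0.20 for FP of C300 over C100 in Glyma.10G037100.1 and Glyma.13G123500.1, 0.21, 0.28, 0.14 and 0.20 for TE of C300 over C100 in the 4, and for Glyma.19G164900.1 -0.36, -0.0744 and -0.0598 for TE of C100 over C25, C300 over C25 and C100 over SC100 and 0.0016 for CT of SC100 over SC25. FP over CT of Glyma.10G037100.1 at SC100 was -0.20 with 10 counts in every library, -0.0010 with no filter, -0.0272 with primary transcripts and -0.0310 with either replicate block. TE of Glyma.03G163500.1 from C25 to C100 was 0.0030 with 10 counts in every library and 0.0045 with no filter. The replicate block by number gave 0.60 and 0.69 for CT of SC100 over SC25 in Glyma.19G164900.1 and Glyma.13G123500.1 and -0.0809 for TE of C300 over C25 in Glyma.19G164900.1. The ratio of TE at C300 to C25 was -0.20, 0.10, 0.38 and 0.51 with TMM-scaled levels and -0.38, -0.0743, 0.20 and 0.33 without the models over 5000 RPKM. The cause was not tested.

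Leaving out 1 library at a time gave 0 to 4 called for CT of C25 over SC25, FP of C25 over SC25, TE of C25 over SC25 and FP over CT at C25, C100 and SC25, 0 to 3 for FP over CT at C300 and TE of SC100 over SC25, 2 to 4 for FP of SC100 over SC25, 0 to 2 for CT of SC100 over SC25 and 0 to 1 for FP over CT at SC100. In the same order of genes as above, values ran from -4.07 to 1.83, -5.89 to 1.32, -4.06 to 1.46 and -6.28 to 0.30 for FP over CT at SC25, and from -0.74 to 5.14, -1.32 to 4.56, -0.34 to 5.14 and -1.52 to 4.62 for CT of SC100 over SC25. For the first 3 genes TE of C25 over SC25 ran from -0.53 to 5.48, -0.22 to 7.11 and -0.58 to 5.05, and TE of SC100 over SC25 from -1.40 to 4.47, -0.79 to 6.36 and -1.36 to 4.12. TE of C100 over C25 ran from -0.35 to 0.32 in Glyma.03G163500.1 and -0.21 to 0.70 in Glyma.19G164900.1, and TE of C300 over C25 from -0.51 to 0.16 and -0.30 to 0.62. In Glyma.13G123500.1 the ranges were -0.0420 to 6.13 for CT of C25 over SC25, -0.0838 to 0.18 for CT of C300 over C100 and -0.38 to 0.81 for FP over CT at SC100, where Glyma.10G037100.1 ran from -0.58 to 0.50. The log2 ratio of TE at C300 to C25 ran from 0.84 to 1.84, 1.05 to 2.29, 1.49 to 2.33 and 1.60 to 2.51.

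The number of all transcripts called moved with the setting: for CT of C100 over C25, 3914 higher and 3174 lower with TMM, 1025 and 26003 on library totals, 1258 and 469 in DESeq2 and 272 and 73 with 18 libraries in 1 fit. Depth limits the SC25 values, with 179 and 23 counts over the 4 models in FP and 91 in CT replicate 2.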
